A study of Rattus rattus with 18 samples.

Results

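The related miR-10, miR-99/100 and miR-125 families were described here by 7 mature miRNAs, all from the 5′ arm of their hairpins: rno-miR-10a-5p, rno-miR-10b-5p, rno-miR-99a-5p, rno-miR-99b-5p, rno-miR-100-5p, rno-miR-125a-5p and rno-miR-125b-5p, written below without rno and, where no other arm is meant, without 5p. They were chosen by name, and all 7 were found among the 761 rat miRNA probes of the array. Their levels were measured in the brain of 9 Sprague Dawley rats on 18 single-colour arrays. The groups were 3 sham-operated rats, 3 rats with transient middle cerebral artery occlusion (tMCAO) and 3 rats labelled remote limb postconditioning (PostC). In tMCAO a brain artery is closed for a time and then reopened, and in remote limb postconditioning the blood flow of a limb is interrupted briefly. Each rat gave an array of the core region and an array of the peri region, so that 6 groups of 3 arrays resulted. The labels do not say whether the PostC rats also underwent tMCAO, and the ages of the rats are not given in the sources used here. The study gives times of sacrifice for its transient occlusion model but does not say which applies to these arrays. By their labels, core tissue came from temporo-parietal cortex and peri tissue from striatum, whereas the text of the study describes core and surrounding tissue the other way round. Region names therefore follow the labels, and a difference between core and peri is also one between 2 parts of the brain.

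A miRNA finds its target messenger RNAs mainly through its bases 2 to 8, the seed, and lowers their translation and stability. The miR-10 genes lie within the Hox clusters and are known for expression in the posterior body, including the spinal cord, rather than the forebrain. The miR-99 and miR-100 group is known for targeting mTOR. The miR-125 group is the vertebrate counterpart of lin-4, the first miRNA described in worms, and is abundant in brain. Members of the miR-99/100 and miR-125 groups lie in shared gene clusters with a let-7 miRNA.

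The target sequences in the array files were printed because the probes of some members differ by very few bases. The seed is in capitals.
miR-10a-5p: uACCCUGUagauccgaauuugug
miR-10b-5p: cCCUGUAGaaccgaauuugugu
miR-99a-5p: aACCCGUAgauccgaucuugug
miR-99b-5p: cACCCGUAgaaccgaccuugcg
miR-100-5p: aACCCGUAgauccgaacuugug
miR-125a-5p: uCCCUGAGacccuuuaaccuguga
miR-125b-5p: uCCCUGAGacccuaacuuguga

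The sequences fell into groups by seed. The seed ACCCGUA was shared by miR-99a, miR-99b and miR-100, and by no other of the 761 targets. The seed CCCUGAG was shared by miR-125a, miR-125b and miR-351-5p, which is not among the 7 by name. The array target of miR-10b began 2 bases later than that of miR-10a, so their bases 2 to 8 differed although the remaining sequence was nearly the same: over the 21 bases they share, the only difference was U12A, counted from the 5′ end of miR-10a. The targets of miR-99a and miR-100 also differed at a single position, U16A, over 22 bases. A probe for either of these pairs may bind the other miRNA, so the values of miR-10a and miR-10b, or of miR-99a and miR-100, cannot be fully told apart. The pair miR-125a and miR-125b matched at 15 of 22 positions when aligned from the 5′ end.

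Levels are given as normalized log2 intensity, on which a difference of 1 is a doubling. Spots were background-corrected, normalized over the 18 arrays and averaged over the 4 spots of a probe, so all differences are relative to the other miRNAs. Detection on an array meant that the median of a probe's spots lay above the median of the empty spots by more than 3 of their scaled median absolute deviations. The arrays detected between 188 and 605 probes (median 336), and the correlation of arrays within a group lay between 0.831 and 0.985. The 532 probes detected on at least 3 of the 18 arrays were tested with limma, a linear model fitted over all probes, and a probe was called at a Benjamini-Hochberg adjusted p under 0.05. Nothing in the sources says more of the replicates than that the rats were different animals. Of the cell type markers, 7 of 8 neuronal miRNAs were detected on all arrays. Their summed intensity was 70540 to 92410 in the tMCAO core arrays and 92870 to 102100 in the sham core arrays. In peri it was 93980 to 119300 after tMCAO and 84930 to 101600 in sham. The summed intensity of 6 leukocyte miRNAs was 7592 to 12360 in tMCAO core, 5968 to 8374 in PostC core, and 3297 to 4031 in sham core. In peri it was 3468 to 4713 after tMCAO, 3245 to 4614 in PostC and 3073 to 3595 in sham. For tMCAO against sham in the rat means, 4 of the 8 neuronal miRNAs were called lower, while 3 of the 8 had positive differences, none of them called. In the same comparison 2 of the 5 tested leukocyte miRNAs and 1 of the 2 tested red blood cell miRNAs were called higher and 1 of 3 muscle miRNAs lower, beside 11.8% of all probes called. The muscle differences ran from -1.12 to 0.65, with 1 positive and 2 negative. Among the leukocyte miRNAs 4 differences were positive and 1 was negative (-0.28). The 3 oligodendrocyte miRNAs had a median tMCAO minus sham difference of -1.23 in the rat means and -2.29 in core, where 0 were called and 2 passed an unadjusted p under 0.05 by limma in each. In each, 1 of the 3 had a positive difference (0.10 and 0.37). Of the 3, miR-219a-5p was detected on 0 tMCAO arrays, so this list includes values below the limit. Their summed intensity was 3191 to 5047 in tMCAO core, 1696 to 4041 in PostC core and 4278 to 16310 in sham core, and 2620 to 3679, 4405 to 4839 and 2791 to 5888 in peri in the same order. The 2 endothelial miRNAs had median differences of -0.52 in the rat means and -1.03 in core (0 called in either), with sums of 3747 to 7364 in tMCAO core, 4226 to 7437 in PostC core and 8342 to 15620 in sham core. Of the 2, miR-126a-5p was detected on 4 arrays, none of them tMCAO, so these medians too include values below the limit. Of the 2 vascular smooth muscle miRNAs 0 were called, with a median difference of 0.16 in the rat means. Of the defining leukocyte markers, miR-223-3p was detected on 4 arrays and miR-142-3p on 1. Their part in the results was not tested. In whole tissue, fewer cells of a type and less RNA per cell cannot be told apart.

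The members fell into bright and dim probes. The 5 members miR-99a, miR-99b, miR-100, miR-125a and miR-125b were detected on all 18 arrays, with a median spot at least 8.99 times the detection limit. miR-10a was detected on only 4 arrays, of which 2 were tMCAO core, 1 tMCAO peri and 1 sham core. miR-10b was detected on 2 arrays, both tMCAO core, and was therefore not among the tested probes, so that 6 of the 7 members were tested. miR-10a passed the filter largely through the tMCAO arrays, where it was high. A limit taken from the dimmest 25% of the miRNA spots of each array instead gave 8 arrays for miR-10a and 6 for miR-10b.

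**Figure D1:**
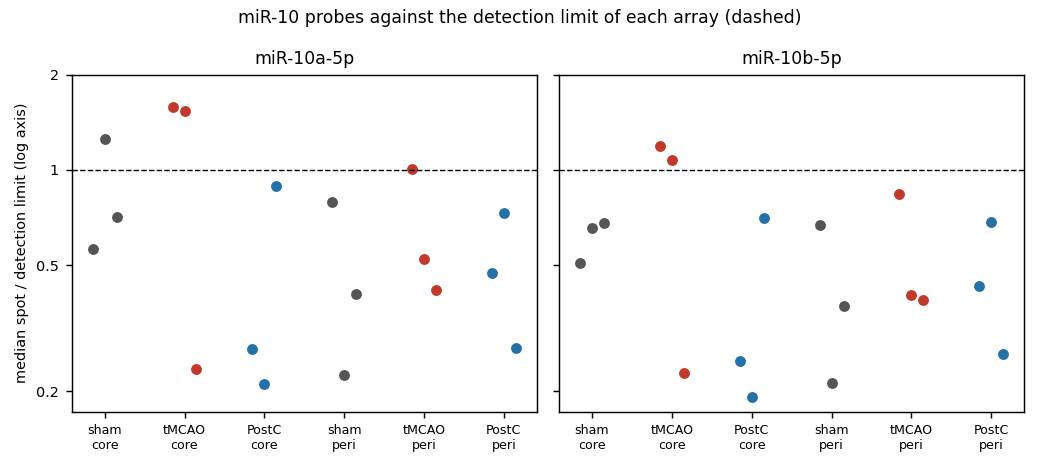
Median spot of miR-10a and miR-10b divided by the detection limit of the array, on a log axis, with 1 point for each of the 18 arrays, by group. The dashed line marks the limit: miR-10a lay above it on 4 arrays, 1 of them barely (1.005 times the limit), and miR-10b on 2.

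miR-10a was the only member called between groups. In the rat means, the average of the core and peri values of each rat, its levels after tMCAO were 7.19, 7.34 and 6.78. In sham-operated rats they were 6.34, 6.50 and 6.14, and in PostC rats 6.36, 6.37 and 6.33. Every tMCAO rat was above every sham and every PostC rat, while the sham and PostC values overlapped. In the same rat means, 41% of all 532 tested probes had tMCAO and sham groups that did not overlap, and 26.1% had PostC and tMCAO groups that did not.

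The means of the measured values of miR-10a were 7.10 after tMCAO and 6.33 in sham, with an adjusted p of 0.0095 by limma. miR-10a was detected on 3 of the 6 tMCAO arrays and 1 of the 6 sham arrays, so most of these values lay below the detection limit and the size of the difference is not given. It also passed the filter through the tMCAO arrays, so its call is not read as support for a change of the families. With no filter, over all 761 probes, the adjusted p was 0.0112 for tMCAO against sham and 0.0189 for PostC against tMCAO. It was the called member among the 6 tested, in a comparison that called 11.8% of all 532 probes. Under the alternatives to the processing its adjusted p ranged from 0.00264 to 0.167, and it was called under 20 of 24. Without tMCAO rat 2 it was not called (adjusted p = 0.0598). For PostC and tMCAO the group means were 6.35 and 7.10, with an adjusted p of 0.0147 by limma, beside 5.64% of all probes called. No fold is given, since miR-10a was not well above background on any of the 6 PostC arrays. The call was lost without tMCAO rat 1 (adjusted p = 0.0687), tMCAO rat 2 (0.0811) or PostC rat 2 (0.0605), and was kept under 17 of 24 alternatives (range 0.00574 to 0.285). Both comparisons share the tMCAO rats.

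The regions gave the following values for miR-10a. In peri it measured 7.24, 7.03 and 7.03 after tMCAO, 6.31, 6.15 and 6.11 in sham and 6.24, 6.12 and 6.77 in PostC. In core it measured 7.14, 7.65 and 6.54 after tMCAO, 6.37, 6.86 and 6.17 in sham and 6.48, 6.62 and 5.90 in PostC. The tMCAO and sham groups did not overlap in peri and did in core, where tMCAO rat 3 lay below sham rat 2. In peri, 31.6% of all tested probes had tMCAO and sham groups that did not overlap.

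In peri, miR-10a passed the threshold against sham (means 7.10 and 6.19, adjusted p = 0.0312 by limma, 0.0307 with no filter), as the only member, beside 0.564% of all probes. It was above the detection limit on 1 of the 3 tMCAO peri arrays, at 1.005 times the limit, and on 0 of the 3 sham peri arrays, so the comparison rests on values near or below the limit and no fold is given. Under the alternatives the call in peri held in 10 of 25, with adjusted p from 0.00212 to 0.544, and it was lost without any of the sham rats or without tMCAO rat 1 or 2. In core the means of tMCAO and sham were 7.11 and 6.46 (adjusted p = 0.258), with miR-10a detected on 2 of 3 and 1 of 3 arrays. No member was called in core, beside 3.38% of all probes; at an unadjusted p under 0.05, limma passed 0 members there, beside 116 of the 532 probes, and the methods' t-test passed 2 members. PostC was not called against tMCAO in peri (means 6.38 and 7.10, adjusted p = 0.293) or in core (6.33 and 7.11, adjusted p = 0.31). Without PostC rat 3 the comparison in peri passed (adjusted p = 0.00258). For PostC against tMCAO no member was called in core or peri, where limma passed 2 and 1 members at an unadjusted p under 0.05, beside 71 and 31 of the 532 probes, and the methods' t-test 1 and 1; no probe at all was called in peri.

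miR-10b was dim too. Its rat means were 6.83, 6.85 and 6.64 after tMCAO, 6.16, 6.17 and 6.09 in sham, and 6.20, 6.31 and 6.18 in PostC. Again every tMCAO rat was above all the others, beside the same shares of 41% and 26.1% of tested probes without overlap. Since miR-10b was detected on 2 of the 6 tMCAO arrays and on no sham or PostC array, these values are given as measured, with no fold. With no filter, over all 761 probes, limma gave miR-10b an adjusted p of 0.00513 for tMCAO against sham and 0.00621 for PostC against tMCAO in the rat means, and 0.0391 for tMCAO against sham in peri. These tests rest on values mostly below the detection limit and are not read as support for a change of the families. The correlation of miR-10a with miR-10b was 0.944 over the 18 arrays and 0.865 within groups, a description of 2 probes whose targets differ by 1 base and which share arrays and background.

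The other dim probes were set beside these values. Among the 228 other probes detected on fewer than 3 arrays, the tMCAO minus sham difference in the rat means had a median of 0.00 and quartiles of -0.09 and 0.12. These differences ran from -0.83 to 0.65, and the tMCAO and sham rats did not overlap for 32.5% of the 228, with tMCAO higher for 18.9%. The opposite arms, miR-10a-3p and miR-10b-3p, were detected on 0 of 18 arrays.

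The deposited intensities of miR-10a, which the authors had already normalized, were 11.41 to 108.47 in tMCAO core and 40.93 to 179.05 in tMCAO peri. They were 1.73 to 43.41 in sham core, 0.50 to 3.42 in sham peri, 3.93 to 16.28 in PostC core and 0.01 to 33.09 in PostC peri. On this linear scale too the peri groups of tMCAO and sham were apart and the core groups overlapped.

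**Figure D2:**
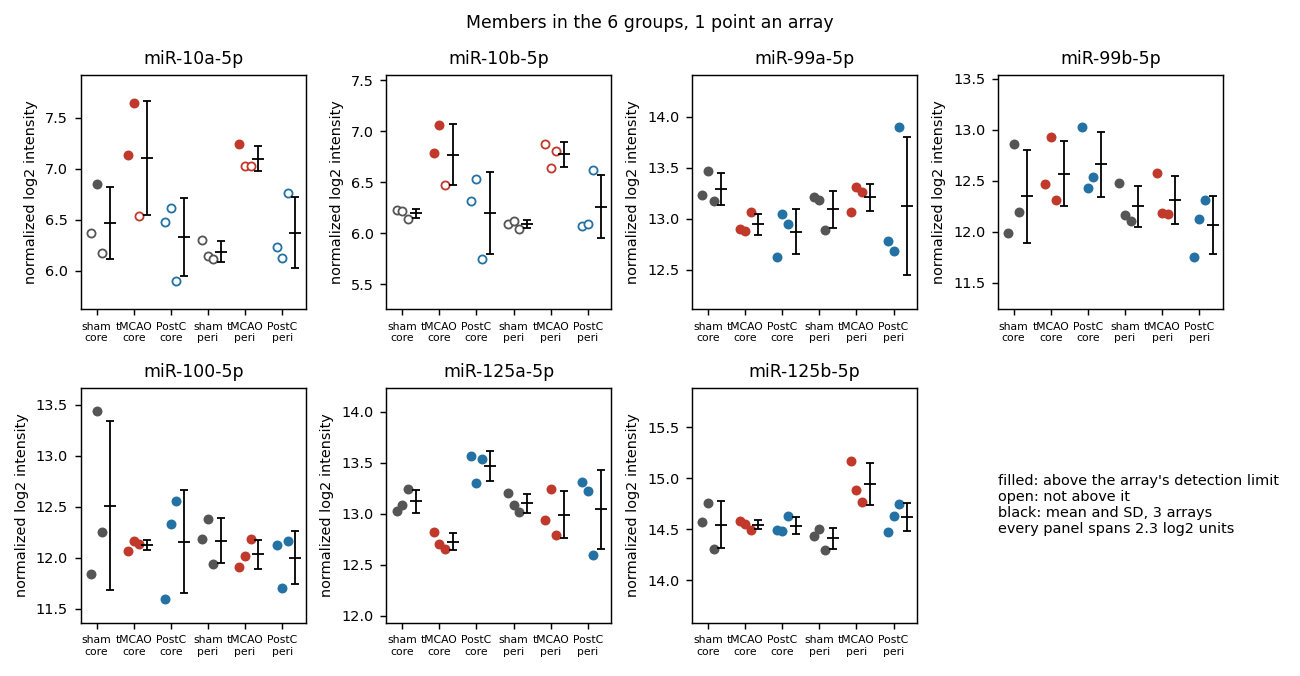
Normalized log2 intensity of the 7 members on each array, with 1 point per rat and region, filled where the probe was above the detection limit of that array; the black marks give the mean and SD of the 3 arrays of a group, and every panel spans the same range. miR-10a and miR-10b were highest after tMCAO, mostly with open symbols; miR-125b was highest in tMCAO peri and miR-125a in PostC core.

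The 3 members with the seed ACCCGUA did not pass the test in any comparison. miR-99a measured 12.90, 12.88 and 13.07 in tMCAO core against 13.23, 13.47 and 13.18 in sham core and 12.62, 13.05 and 12.95 in PostC core. Every sham core value was above every tMCAO and PostC value. The differences were -0.35 for tMCAO (SE 0.21, adjusted p = 0.321) and -0.42 for PostC (SE 0.21, adjusted p = 0.328), neither called. In core, 41% of all probes had tMCAO and sham groups that did not overlap, and 22% had PostC and sham groups that did not. In peri, miR-99a measured 13.06, 13.31 and 13.26 after tMCAO, 13.21, 13.18 and 12.89 in sham and 12.79, 12.68 and 13.91 in PostC. These groups overlapped, and the difference of tMCAO from sham was 0.12 (adjusted p = 0.887). With median scaling this difference was -0.69 (adjusted p = 0.15 by limma), and with background subtraction and a floor of 1 it was -0.06.

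miR-99b lay at 12.47, 12.93 and 12.31 in tMCAO core and 12.58, 12.18 and 12.18 in tMCAO peri. Sham values were 11.99, 12.86 and 12.20 in core and 12.48, 12.17 and 12.11 in peri. In PostC they were 13.03, 12.43 and 12.54 in core and 11.76, 12.13 and 12.31 in peri. The sham, tMCAO and PostC groups overlapped in each region. The tMCAO minus sham difference in the rat means was 0.14 (SE 0.18, 95% interval -0.26 to 0.54, adjusted p = 0.624). It was -0.27 with median scaling and -0.15 with the trend over GC content removed.

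miR-100, whose target differs from that of miR-99a by U16A, measured 12.07, 12.17 and 12.14 in tMCAO core and 11.91, 12.01 and 12.18 in tMCAO peri. Sham values were 11.85, 13.44 and 12.26 in core and 12.18, 12.38 and 11.94 in peri. PostC values were 11.59, 12.33 and 12.55 in core and 12.13, 11.70 and 12.17 in peri. The core array of sham rat 2 was the highest of all 18. The difference of tMCAO from sham in the rat means was -0.26 (SE 0.26, adjusted p = 0.507) and became 0.02 without that rat.

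The 2 members with the seed CCCUGAG were not called in any comparison, and their differences from sham after tMCAO had opposite signs in the rat means. With background subtraction and a floor of 1 the difference of miR-125b was -0.21, of the same sign as that of miR-125a, so the contrast in direction depends on the processing. miR-125a measured 12.82, 12.71 and 12.65 in tMCAO core, 13.03, 13.09 and 13.25 in sham core and 13.57, 13.30 and 13.54 in PostC core. The 3 groups did not overlap: tMCAO was lowest, sham in between and PostC highest. PostC exceeded tMCAO by 0.74 (SE 0.19, 95% interval 0.33 to 1.16), with an unadjusted p of 0.00265 and an adjusted p of 0.064 by limma over all probes, so it was not called. In that comparison 2.26% of all probes were called and 18.6% had groups that did not overlap. The difference passed under 3 of 26 alternatives. The other core differences of miR-125a were -0.40 for tMCAO against sham (SE 0.19, adjusted p = 0.251) and 0.35 for PostC against sham (SE 0.19, adjusted p = 0.355).

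In peri miR-125a measured 12.94, 13.24 and 12.80 after tMCAO, 13.20, 13.09 and 13.02 in sham and 13.31, 13.22 and 12.60 in PostC, and all groups overlapped. In the rat means PostC exceeded tMCAO by 0.40 (SE 0.16, adjusted p = 0.211), again with no overlap, as in 26.1% of all probes. The tMCAO rats were also below the sham rats (difference -0.25, SE 0.16, adjusted p = 0.299), without overlap, as in 41% of all probes.

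miR-125b measured 15.17, 14.88 and 14.77 in tMCAO peri, 14.43, 14.50 and 14.30 in sham peri and 14.48, 14.63 and 14.75 in PostC peri. The tMCAO values were above all the others. The difference from sham was 0.53 (SE 0.17), with an unadjusted p of 0.00812 and an adjusted p of 0.179, and was not called. With median scaling the difference was -0.03. Groups did not overlap in 31.6% of all probes there. PostC was below tMCAO in peri by a difference of -0.32 (SE 0.17, adjusted p = 0.725), without overlap, as in 7.89% of probes. In core, miR-125b measured 14.59, 14.55 and 14.50 after tMCAO, 14.57, 14.76 and 14.30 in sham and 14.49, 14.48 and 14.63 in PostC. The core values overlapped, and their difference was 0.00 (SE 0.15, 95% interval -0.32 to 0.32). In the rat means the difference from sham was 0.26 (SE 0.13, adjusted p = 0.175), without overlap, as in 41% of all probes.

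**Figure D3:**
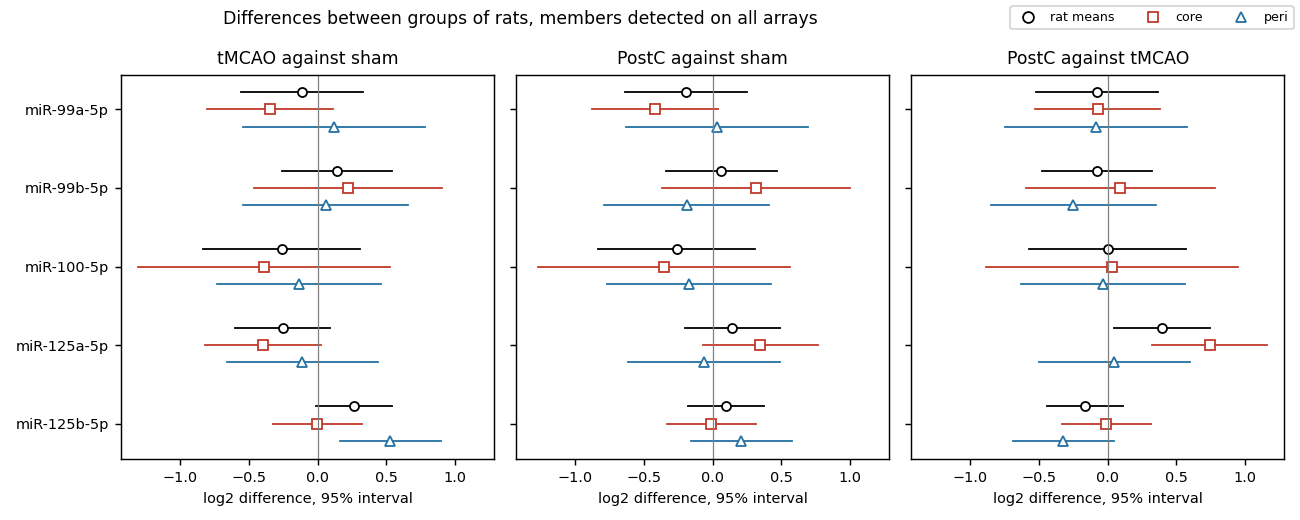
Differences of the 5 members detected on all arrays between groups of rats, as log2 differences with their 95% intervals from limma, for the rat means and for core and peri alone. The vertical line marks no difference, and none of these 5 members reached an adjusted p under 0.05; the farthest from the line was miR-125a in PostC against tMCAO in core, at 0.74.

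PostC against sham gave no called member. In the rat means no member was called, beside 0.188% of all probes, and the adjusted p ranged from 0.68 to 0.965. In core and in peri the share of called probes was 0, for members and for the whole array, and no member had peri groups that did not overlap (5.08% of all probes). In core the groups did not overlap for 2 members, miR-99a and miR-125a, and for 22% of all probes. By limma at an unadjusted p under 0.05, 0 of the 6 members passed, whether in the rat means, core or peri. The t-test named in the study's methods gave 0, 1 and 0 members at that level. Over all probes, limma gave 75, 90 and 14. The 95% interval of miR-125b in the rat means was -0.18 to 0.38, which still includes a change of the size seen after tMCAO.

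Core and peri were compared within each rat. No member was called in sham, tMCAO or PostC rats, where 0, 0.94% and 0 of all probes were called. At an unadjusted p under 0.05, limma passed 0, 1 and 0 members, beside 29, 58 and 52 of the 532 probes, and the methods' t-test passed 0 members in each. The member with p under 0.05 was miR-125b after tMCAO, lower in core than in peri by a difference of -0.40 (SE 0.16, adjusted p = 0.382). Its core minus peri values were -0.59, -0.34 and -0.27 in the tMCAO rats, all below 0. The largest region difference was that of miR-99b in PostC rats, 0.60 (SE 0.33, adjusted p = 0.542). Whether a group difference itself differed between core and peri was tested too, and 0 members and 0 probes were called for each pair of groups. At an unadjusted p under 0.05, limma passed 1, 0 and 0 members, beside 46, 56 and 30 of the 532 probes, and the t-test 2, 0 and 1 members, for tMCAO against sham, PostC against sham and PostC against tMCAO. Between tMCAO and sham, miR-99a and miR-125b had core minus peri values of opposite sign in every rat of the 2 groups, as did 9.59% of all probes. Between PostC and tMCAO this held for miR-125a and for 3.95% of all probes, and between PostC and sham for no member and 3.57% of all probes.

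Of the 5 bright members, miR-125b and miR-125a varied least from array to array. The SD over the 18 arrays was 0.21 for miR-125b, 0.28 for miR-125a, 0.30 for miR-99a, 0.33 for miR-99b and 0.39 for miR-100, whereas the median over the 141 probes detected on all arrays was 0.49. Only 1.42% of those probes had a smaller SD than miR-125b and 4.26% a smaller SD than miR-125a. The SD was lower among brighter probes in general: in the 50 probes with a mean of at least 12 the median was 0.41. Among these, 2 had a smaller SD than miR-125b, 6 than miR-125a, 12 than miR-99a, 15 than miR-99b and 22 than miR-100. Between the highest and the lowest array, miR-125b ranged over 0.87 and miR-100 over 1.84, beside a median range of 1.855 over the 141 probes.

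**Figure D4:**
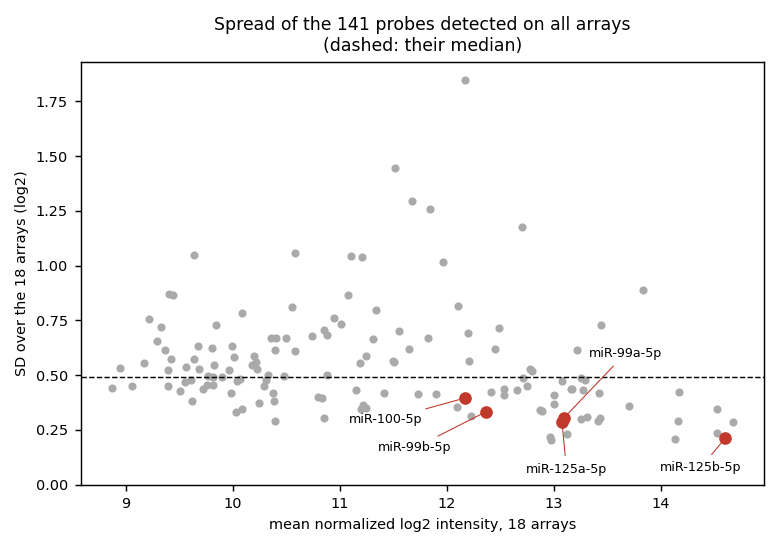
SD over the 18 arrays against mean normalized log2 intensity, for the 141 probes detected on all arrays, with 1 point per probe and the bright members in red. The dashed line is the median SD of 0.49, and all 5 members lie below it.

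Of the 5 members detected on all arrays, 2 had a positive and 3 a negative tMCAO minus sham difference in the rat means, with a median of -0.11, beside a median of 0.10 over the 141 probes detected on all arrays. Over the 18 arrays miR-99a correlated with miR-100 at 0.454, miR-10a with miR-125b at 0.564, miR-10a with miR-125a at -0.57 and miR-99a with miR-125a at -0.445. Within groups these correlations were 0.473, 0.396, -0.371 and -0.698, in the same order. These are descriptions over arrays that share rats and normalization.

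Of the opposite hairpin arms, 8 were on the array and 6 were tested, and none was called in any of the 15 comparisons. At an unadjusted p under 0.05, limma and the methods' t-test passed 0 and 1 of them for tMCAO against sham in the rat means. In the other comparisons limma passed 0 at that level and the t-test 0 or 1. miR-125b-2-3p was detected on 12 arrays, none of them tMCAO peri, and the other tested arms on 4 to 8, so no differences are given for them.

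miR-351-5p, the remaining probe with the seed CCCUGAG, was detected on 6 arrays. It is printed with its seed in capitals, since it shares bases 2 to 8 with miR-125a and miR-125b.
miR-351-5p: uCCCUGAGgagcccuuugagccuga

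Its rat means were 6.90, 6.90 and 7.11 after tMCAO, 7.19, 7.59 and 7.38 in sham and 7.23, 7.21 and 7.20 in PostC. The tMCAO rats were below all the others, in comparisons where 41% (against sham) and 26.1% (against PostC) of all probes did not overlap. The comparison with sham was not called (adjusted p = 0.0811 by limma). No fold is given, since miR-351-5p was detected on 0 of the 6 tMCAO arrays.

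The let-7 miRNAs of the clusters were examined beside the members, since miR-99b, let-7e and miR-125a are transcribed together, as are miR-99a, let-7c and a copy of miR-125b, and miR-100, let-7a and the other copy of miR-125b. Mature miR-125b, let-7a and let-7c come from more than 1 locus, so an array value cannot be assigned to a cluster. Their targets share the seed of the let-7 family and differ by 1 or 2 bases from each other.
let-7e-5p: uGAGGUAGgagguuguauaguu
let-7c-5p: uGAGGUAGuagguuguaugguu
let-7a-5p: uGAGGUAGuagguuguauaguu

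All 3 had higher rat means after tMCAO than in sham, without overlap, and let-7c was called, in a comparison where 41% of all probes did not overlap and 11.8% were called. The values of let-7c were 13.73, 13.66 and 13.48 after tMCAO and 12.95, 12.66 and 13.12 in sham, a difference of 0.71 (SE 0.18, adjusted p = 0.0322 by limma). It was called under 15 of 25 alternatives (adjusted p from 0.0234 to 0.354), and not without tMCAO rat 1 or 2, sham rat 1 or 2 or PostC rat 2 (0.0514 to 0.121). The values of let-7e were 11.87, 12.25 and 11.75 after tMCAO and 10.98, 11.55 and 10.91 in sham, a difference of 0.81 (SE 0.26, adjusted p = 0.0694). The values of let-7a were 13.21, 13.16 and 13.14 after tMCAO and 12.71, 11.87 and 12.78 in sham, a difference of 0.72 (SE 0.25, adjusted p = 0.0776). In sham rat 2 the let-7a value rested on 4 spots of 8080, 8544, 8696 and 35.19 on the core array. With the median of the 4 spots the difference of let-7a was 0.45 (adjusted p = 0.102). The adjacent members of the clusters were not called: their differences were 0.14 for miR-99b, -0.25 for miR-125a, -0.11 for miR-99a, 0.26 for miR-125b and -0.26 for miR-100.

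The change within a cluster was then taken as the log2 ratio of its miRNAs in each rat, 27 ratios in all. In the rat means the ratio of let-7e to miR-125a was higher after tMCAO than in sham by 1.06, let-7e to miR-99b by 0.67, let-7c to miR-99a by 0.83 and let-7c to miR-125b by 0.45. The ratio of let-7a to miR-100 was higher by 0.98, by 0.72 with the median of the 4 spots and by 0.40 without sham rat 2. The ratio of let-7c to miR-125b was higher by 0.25 without sham rat 2, and with the median of the 4 spots the groups overlapped. With the mean of the 4 spots and all rats, none of these groups of ratios overlapped, but with 3 rats against 3 the exact two-sided permutation test gave p = 0.1 for each, the smallest it allows, so no ratio could pass, even before adjustment over the 27. For single probes, tMCAO and sham did not overlap in 41% of cases in the rat means and in core, and in 31.6% in peri. The share for ratios of other probe pairs was not computed, so no overlap, here or for the ratios below, is not read as a result. The ratio of let-7a to miR-125b was higher by 0.45, with overlap (exact permutation p = 0.3), by 0.14 with the median of the 4 spots and by 0.09 without sham rat 2.

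By region these ratios gave the following changes. The ratio of let-7c to miR-125b changed by 0.99 in core, without overlap (0.73 to 1.28 when a rat was left out), and by -0.10 in peri, with overlap (-0.23 to 0.00 when a rat was left out). The ratio of let-7c to miR-99a changed by 1.34 in core and by 0.32 in peri, again with overlap in peri, where leaving out a rat gave 0.12 to 0.47 (0.18 without sham rat 2). The ratio of let-7a to miR-125b changed by 1.21 in core, by 0.60 there with the median of the 4 spots and by 0.56 without sham rat 2, and by -0.30 in peri, with overlap in peri. The ratio of let-7e to miR-125a changed by 1.13 in core, with overlap, and by 1.00 in peri, without. The ratio of let-7e to miR-99b changed by 0.51 in core and by 0.83 in peri, both without overlap. The ratio of let-7a to miR-100 changed by 1.60 in core, without overlap, and by 0.36 in peri, with overlap. Its core change was 1.02 with the median of the 4 spots and 0.59 without sham rat 2. Whether the changes themselves differed between core and peri was not tested.

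Between members of a cluster, the log2 ratio of miR-125a to miR-99b in the rat means changed by -0.39 from sham to tMCAO, and the ratio of miR-125b to miR-99a was higher by 0.38 (exact permutation p = 0.1 for each, without overlap). The ratio of miR-125b to miR-100 was higher by 0.52, with overlap (exact permutation p = 0.2). It was higher by 0.32 without sham rat 2, and by 0.58, without overlap, with the median of the 4 spots. Of the opposite let-7 arms, 3 of the 4 listed were on the array, and let-7c-1-3p passed the threshold for tMCAO against sham (adjusted p = 0.0495). It was detected on 2 of the 6 tMCAO and 1 of the 6 sham arrays, so most of its values lay below the limit and no difference is given. It was called under 10 of 24 alternatives, and among the left-out rats it kept its call only without tMCAO rat 3 or PostC rat 3.

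**Figure D5:**
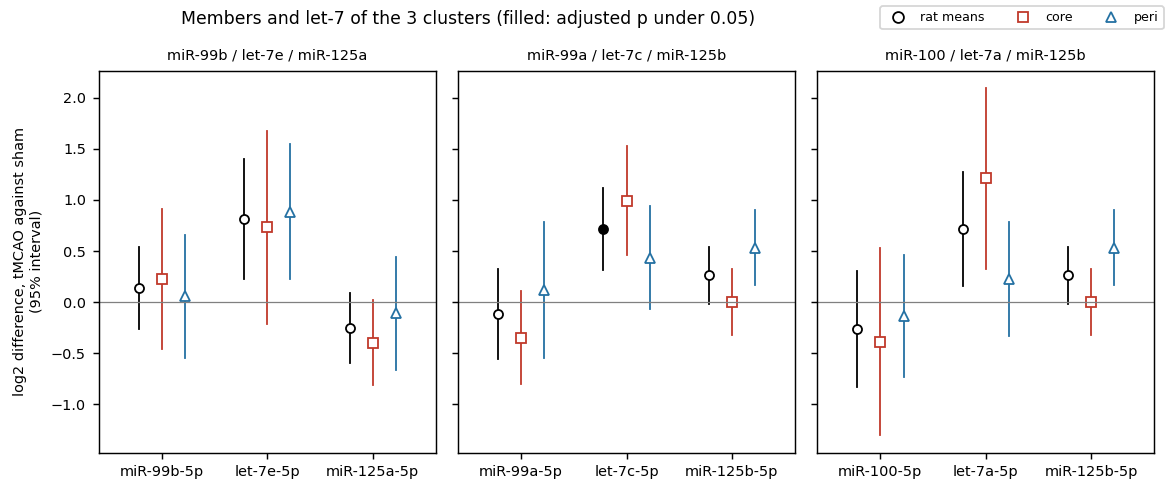
Difference of tMCAO from sham for the members and the let-7 miRNAs of the 3 clusters, as log2 differences with 95% intervals for the rat means, core and peri. In the rat means let-7c lies at 0.71, let-7e at 0.81 and let-7a at 0.72 (0.45 with the median of its 4 spots), and the members between -0.26 and 0.26; the filled symbol (let-7c) marks an adjusted p under 0.05.

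The probes whose pattern was most like that of the members were found by Pearson correlation over the 18 arrays. Nearest to the mean of the 5 bright members were miR-126a-5p (0.77), miR-28-5p (0.755) and miR-135a-5p (0.748), which were detected on 4, 11 and 5 arrays. Nearest to miR-10a were miR-615 (0.817) and let-7c-1-3p (0.794), each detected on 4 arrays. Nearest to miR-99a were miR-20a-5p (0.818) and miR-30e-5p (0.814), nearest to miR-99b miR-138-2-3p (0.688) and miR-361-3p (0.643), and nearest to miR-100 miR-28-5p (0.848) and miR-190a-3p (0.835). Of these, miR-28-5p was detected on 11 arrays and miR-190a-3p on only 3. miR-125a was most like miR-466b-2-3p (0.867) and miR-466c-5p (0.834), and miR-125b most like miR-872-5p (0.727) and miR-29a-3p (0.707).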

How the data were processed

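miRNA levels were measured on 18 single-colour (Cy5) arrays of core and peri tissue of 9 rats. The authors deposited spot intensity values (median over the pixels of a spot), with no background subtraction or normalization, and a table of intensity values normalized by background subtraction and locally weighted regression on a linear scale. The labels name a miRNeasy kit for RNA extraction and the paper names Trizol.

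From the spot intensities, background was corrected by normexp (offset 50), log2 values of the miRNA spots were normalized by cyclic loess over 18 arrays, and the 4 spots of a probe were averaged. The detection limit of each array was the median of the 612 empty spots plus 3 scaled median absolute deviations. Probes detected on at least 3 arrays (532 of 761) were tested with limma 3.58.1 in R 4.3.3 (lmFit, eBayes with variance trend, Benjamini-Hochberg at 0.05), in rat means, core, peri and core minus peri. The rat was the replicate. Exact permutation tests were two-sided. The number of arrays limits the precision.

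All 7 members were named in every comparison, with their opposite arms, the let-7 miRNAs of their clusters, probes sharing a seed and the nearest probes by correlation. The members and lists were chosen with earlier results of these data known. The fit was tested on simulated data. Same-numbered rats of different groups had correlations of -0.405 to 0.227, so the numbers do not pair them. Alternatives concerned background, normalization, filters, detection limit, GC content, variance trend, blocks, the methods' t-test, spot medians and left-out rats. No genome was used here, so no positions are given. Figures were drawn with matplotlib 3.10.9 in Python 3.11.15.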

Additional observations from a re-analysis of the deposited data

Results flagged for a closer look

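For 3 members every rat of a group had a core minus peri difference of one sign and every rat of another group the opposite sign. In the tMCAO rats miR-99a was lower in core than in peri (-0.17, -0.44 and -0.19), and in the sham rats higher (0.02, 0.29 and 0.29). The difference between the groups was -0.465 (SE 0.34, adjusted p = 0.715 by limma). miR-125b showed the same pattern, -0.59, -0.34 and -0.27 after tMCAO against 0.14, 0.26 and 0.00 in sham (the last just above 0), a difference of -0.531 (SE 0.228, adjusted p = 0.546 by limma). Both patterns use the same 6 rats, and 9.59% of the 532 tested probes had such opposite signs between tMCAO and sham. For miR-125a the core exceeded peri in every PostC rat (0.26, 0.08 and 0.94) and was below it in every tMCAO rat (-0.12, -0.53 and -0.14), a difference of 0.693 (SE 0.313, adjusted p = 0.858 by limma). Such signs occurred in 3.95% of the tested probes between PostC and tMCAO. None of the 3 differences passed the threshold over all probes.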

How the results depend on the processing

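Of 1377 member differences under alternatives, 101 had the other sign, none of them past the threshold in either setting. For tMCAO against sham in the rat means, 1 member was called. The count was 0 with the deposited intensities at a floor of 50, with detection on all 18 arrays (where miR-10a is not among the tested probes), with the methods' t-test and with control spots kept in the loess (added after seeing the data), and 2 with no filter or the limit from the dimmest spots, where the added member is miR-10b, here as in the counts of 2 below under those settings; without 1 rat it was 0 to 1. For PostC against tMCAO in the rat means (1 member), the count was 0 with background subtraction and a floor of 1, the deposited floor of 50, all 18 arrays, the t-test or control spots in the loess, 2 with no filter or the dimmest-spot limit, and 0 to 1 without 1 rat. For tMCAO against sham in peri (1 member), it was 0 with background subtraction, offset 16, quantile normalization, the deposited intensities at either floor, all 18 arrays, the GC trend removed, no variance trend, the t-test, the rat as a random block or control spots in the loess, 2 with no filter or the dimmest-spot limit, and 0 to 2 without 1 rat. With median scaling it was 3, miR-100 (-1.07, adjusted p = 0.0356) and miR-125a (-0.92, adjusted p = 0.0399) being lower. That scaling moved the median of all probes in peri to -0.42. Without PostC rat 3 miR-125b was also called in peri (adjusted p = 0.0458). Counts of 0 became 1 for PostC against tMCAO in core (miR-125a; deposited floor of 50, GC trend removed, rat as a random block), for PostC against tMCAO in peri (0 to 1 without 1 rat) and for core against peri after tMCAO (miR-125b; deposited floor of 50). For the remaining 9 comparisons the count of members stayed at 0. The replicate block gave 1 member for tMCAO against sham in the rat means and in peri and 1 for PostC against tMCAO, and changed no count of members.

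Over all probes, the 63 calls for tMCAO against sham in the rat means changed to 124 with quantile normalization, 130 with median scaling (26 higher, 104 lower, against 24 and 39), 33 higher and 93 lower with the deposited floor of 1, and to 21 on all 18 arrays, 23 by the t-test and 8 without tMCAO rat 2. The 18 calls in core became 3 with the replicate block, 0 without sham rat 1 or 3 and 46 with the rat as a random block; the 3 in peri became 17 higher and 111 lower with median scaling and 0 with, among others, quantile normalization and the t-test. The 30 calls for PostC against tMCAO became 15 with background subtraction, 6 by the t-test and 9 without tMCAO rat 2. No slide or scan number was found in the files used here, so that batch alternative was not run. The causes of these shifts were not tested, and the dim signal of miR-10a and miR-10b limits their values. The spot medians and left-out rats for the ratios within clusters were added after seeing the data.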
